A study of Homo sapiens with 12 samples.

Results

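The genes of Polycomb repressive complex 2 (PRC2) were examined in RNA sequencing of G401, an established human malignant rhabdoid tumour line that lacks the SWI/SNF subunit SMARCB1. The set was fixed by name: EZH1, EZH2, EED, SUZ12, JARID2, AEBP2, MTF2, PHF1, PHF19 and EPOP, 10 genes in all. A row could be matched for 9 of them among the 57820 gene rows of the tables, and EPOP, for which no table paired a row, has no value here. Every one of the 9 was measured well, with 268 to 4995 counts in each library.

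There were 4 groups of 3 libraries, all from SMARCB1-/- G401 cells given doxycycline. In the GFP groups doxycycline induced green fluorescent protein as a control, and in the SMARCB1 groups it induced SMARCB1. Both states then received, for 24 h, either DMSO as solvent control or dBRD9-A. The latter is a degrader of BRD9, a subunit of the non-canonical BAF form of SWI/SNF. The labels do not state how long doxycycline was given, whether the lines are clones, or whether replicates are separate cultures, so the p-values measure the spread between these libraries, which may be technical. The groups are below called GFP DMSO, GFP dBRD9-A, SMARCB1 DMSO and SMARCB1 dBRD9-A.

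PRC2 is the enzyme complex that methylates lysine 27 of histone H3 (H3K27), a mark of silenced developmental genes. EZH2 or its paralogue EZH1 carries the catalytic site and works only together with EED and SUZ12. Accessory subunits form either PRC2.2, with JARID2 and AEBP2, or PRC2.1, with a Polycomb-like protein (MTF2, PHF1 or PHF19) that binds CpG-rich DNA. SWI/SNF opposes Polycomb at shared target genes, and rhabdoid cells without SMARCB1 are known for their need of EZH2. The comparisons ask what returning SMARCB1, or removing BRD9, does to the mRNA of the complex itself.

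The libraries held 34.97 to 58.54 megacounts (1e6 counts) assigned to genes. SMARCB1 had 0 to 2 counts in the 6 GFP libraries and 53033 to 110893 counts in the 6 SMARCB1 libraries, as their labels say. Its level was lower in SMARCB1 dBRD9-A, at 1318, 1327 and 1277 CPM, than in SMARCB1 DMSO, at 1807, 1912 and 1908 CPM (-0.52 on the log2 scale, SE 0.03, adjusted p = 4.95e-08, edgeR). The part of this difference in the comparisons that involve SMARCB1 dBRD9-A was not tested. The mRNA of BRD9 had 1483 to 2635 counts per library and passed the test in neither dBRD9-A comparison (adjusted p = 0.146 in GFP cells and 0.921 in SMARCB1 cells, edgeR), which is no check of the degrader because it acts on the protein. Levels are counts per megacount (CPM) on library sizes scaled by edgeR's trimmed mean of M values (TMM). Synthetic spike-in RNAs took 0.963% to 1.3% of all counts, and with them as the scale the median gene stood at a log2 fold change of 0.17 for SMARCB1 in DMSO, -0.32 for SMARCB1 with dBRD9-A, 0.36 for dBRD9-A in GFP cells and -0.14 for dBRD9-A in SMARCB1 cells. How the spike-ins were added is not given in the sources used here, so changes below are relative to the other genes of a library. A change smaller than these shifts can turn under the other scaling, so the sign of a value near 0 that did not pass carries no direction.

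The promoters of 4 members are shown, chosen for how their mRNA behaved. EZH2, the main catalytic subunit, passed the test in no comparison on the TMM scale, JARID2 had the largest change of the 9 for SMARCB1, PHF19 passed in all 4 pairwise comparisons, and SUZ12 is the scaffold to which others are compared below. Each runs from 250 bases before to 20 bases after an annotated RefSeq start (GRCh38.p14), read along the gene. Capitals mark exact matches on either strand to the E2F words TTTCCCGC, TTTGGCGC, TTTCGCGC or TTTGCCGC, to CCAAT, or to TGACGTCA, the cyclic AMP response element (CRE). The windows lie at chr7:148884272-148884541 (minus strand, the first of 2 starts), chr17:31936757-31937026 (plus), chr6:15245819-15246088 and chr6:15248605-15248874 (plus, for its 2 annotated starts) and chr9:120877169-120877438 (minus, the second of 2 starts). For EZH2 and PHF19 only the start with an E2F word is shown. The start left out had none of these words at EZH2, and 1 CCAAT word but no E2F word at PHF19.
EZH2 start 1: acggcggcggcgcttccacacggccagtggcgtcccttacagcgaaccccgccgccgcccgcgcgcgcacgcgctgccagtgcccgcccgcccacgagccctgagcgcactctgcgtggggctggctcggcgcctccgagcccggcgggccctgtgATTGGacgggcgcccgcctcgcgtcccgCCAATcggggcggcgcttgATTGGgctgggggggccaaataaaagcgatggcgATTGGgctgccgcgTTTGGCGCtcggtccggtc
SUZ12: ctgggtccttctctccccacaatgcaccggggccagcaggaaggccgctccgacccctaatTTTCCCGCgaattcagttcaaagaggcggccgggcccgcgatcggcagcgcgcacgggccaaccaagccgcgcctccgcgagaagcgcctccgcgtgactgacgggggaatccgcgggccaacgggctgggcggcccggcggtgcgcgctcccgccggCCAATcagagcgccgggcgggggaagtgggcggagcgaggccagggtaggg
JARID2 start 1: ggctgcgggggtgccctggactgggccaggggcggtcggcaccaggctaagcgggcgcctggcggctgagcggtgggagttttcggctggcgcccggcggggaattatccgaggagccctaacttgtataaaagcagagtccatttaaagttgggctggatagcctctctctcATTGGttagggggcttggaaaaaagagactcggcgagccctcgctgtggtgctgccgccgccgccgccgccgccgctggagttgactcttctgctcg
JARID2 start 2: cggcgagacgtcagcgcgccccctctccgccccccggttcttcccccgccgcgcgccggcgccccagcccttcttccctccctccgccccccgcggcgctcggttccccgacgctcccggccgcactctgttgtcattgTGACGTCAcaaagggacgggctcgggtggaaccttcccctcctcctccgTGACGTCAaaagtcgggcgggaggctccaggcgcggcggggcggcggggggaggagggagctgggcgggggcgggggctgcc
PHF19 start 2: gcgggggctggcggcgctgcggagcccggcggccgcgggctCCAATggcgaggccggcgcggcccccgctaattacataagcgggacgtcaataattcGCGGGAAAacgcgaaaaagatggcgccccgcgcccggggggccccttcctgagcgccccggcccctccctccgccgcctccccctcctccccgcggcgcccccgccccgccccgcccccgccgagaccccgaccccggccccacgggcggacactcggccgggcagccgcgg

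An E2F word was found in 6 of the 12 windows of the 9 genes, at EZH1, EZH2, SUZ12, AEBP2, MTF2 and PHF19, against 3.03% of all 35116 windows of this length. EZH2 start 1 had it 2 bases after the start and also held 4 CCAAT words, which 33.1% of all windows hold at least once. JARID2 had no E2F word at either start. Its second start instead held 2 CRE words, 111 and 62 bases before the start, where 1.83% of all windows hold any. The words were chosen with the sequences in view, and which start G401 uses was not tested. No member window had fewer than 12 CpG, the median of all windows, and PHF19 start 2 had 43.

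In DMSO, 5 of the 9 members passed the test for SMARCB1 against GFP (4 higher, 1 lower), where 65.0% of all 15750 genes tested did (33.5% higher, 31.6% lower). The members' share was therefore near the background, and their median log2 fold change was 0.07 against 0.00 over all genes. JARID2, EED, PHF1 and PHF19 rose and EZH1 fell. Only JARID2 moved by more than 0.5 on the log2 scale, where 4411 of all 15750 genes passed with a change of at least 0.5. By DESeq2's Wald test 3 members passed, where 9765 of 21482 genes did. Also 3 members passed by edgeR without GFP DMSO replicate 3, where 9710 of 16024 genes did. The count was again 3 without SMARCB1 DMSO replicate 3, where 9724 of 16020 genes passed. By spike-ins 6 passed, all higher, with EZH2 and MTF2 among them and EZH1 not. Of all 15750 genes, this scaling called 6831 higher and 2581 lower.

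**Figure D1:**
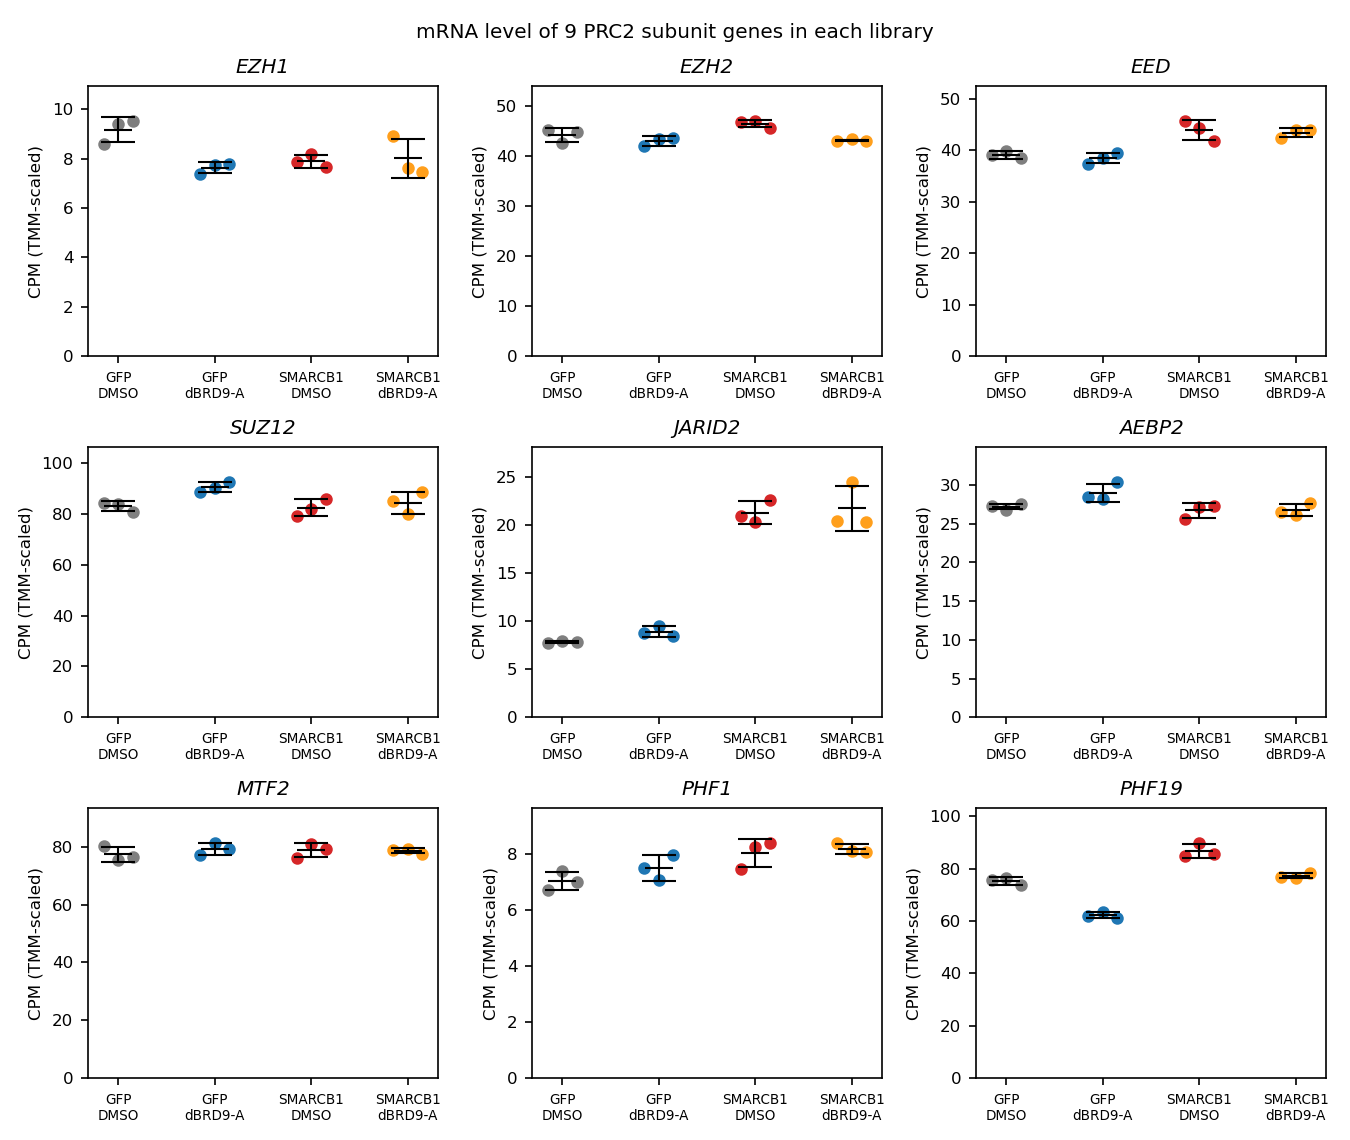
mRNA level of each PRC2 gene in CPM (vertical axis from 0) in the 12 libraries, by group; points are libraries, the long bar is the mean and the whiskers 1 SD (n = 3). JARID2 lies at 7.71 to 9.56 CPM in the GFP libraries and at 20.4 to 24.5 CPM in the SMARCB1 libraries, and PHF19 is lowest in GFP dBRD9-A.

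Of the catalytic subunits, only EZH1 passed in any comparison by edgeR on the TMM scale. EZH2, the main H3K27 methyltransferase of dividing cells, stood at 45.2, 42.6 and 44.8 CPM in GFP DMSO and at 46.8, 46.9 and 45.6 CPM in SMARCB1 DMSO. The 2 groups do not overlap but are 4.8% apart, a log2 fold change of 0.07 (95% interval 0.00 to 0.14, adjusted p = 0.0849, edgeR), and under spike-in scaling it was 0.24 (adjusted p = 0.0025). With dBRD9-A the SMARCB1 effect on EZH2 was 0.01 (-0.07 to 0.08), and -0.32 by spike-ins (adjusted p = 7.51e-05).

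dBRD9-A left EZH2 at 41.9, 43.5 and 43.5 CPM in GFP cells, overlapping the DMSO libraries, with a change of -0.04 (-0.12 to 0.03) that turned to 0.32 by spike-ins (adjusted p = 0.000101). In SMARCB1 cells EZH2 stood at 43.1, 43.3 and 43.0 CPM, below every DMSO library, but the difference of -0.11 (-0.18 to -0.03) did not pass (adjusted p = 0.148, edgeR), and passed by spike-ins at -0.24 (adjusted p = 0.031). These intervals limit an EZH2 change on the TMM scale to less than 0.2 on the log2 scale in every pairwise comparison.

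EZH1, the weaker methyltransferase that prevails in resting cells, had 8.59, 9.41 and 9.51 CPM in GFP DMSO, 7.37, 7.74 and 7.80 CPM in GFP dBRD9-A, and 7.85, 8.17 and 7.66 CPM in SMARCB1 DMSO. All libraries of the latter 2 groups lie below GFP DMSO. EZH1 fell by 0.22 on the log2 scale with SMARCB1 in DMSO (SE 0.07, adjusted p = 0.0157, edgeR), where spike-in scaling gave -0.05 (adjusted p = 0.712), and by 0.26 with dBRD9-A in GFP cells (SE 0.08, adjusted p = 0.0238), a change that turned to 0.09 under spike-in scaling. The calls were lost in 2 and 5 of the 12 fits that each left out 1 library, and DESeq2 gave neither (adjusted p = 0.0625 and 0.0566). In SMARCB1 dBRD9-A the libraries were at 8.92, 7.64 and 7.47 CPM, the first well above the other two, and the group overlapped SMARCB1 DMSO (log2 fold change 0.02, -0.14 to 0.18). Counts of EZH2 per count of EZH1 averaged 4.84 in GFP DMSO, 5.63 in GFP dBRD9-A, 5.89 in SMARCB1 DMSO and 5.42 in SMARCB1 dBRD9-A. The SMARCB1 dBRD9-A libraries (4.825 to 5.757) overlapped GFP DMSO (4.531 to 5.26), while those of GFP dBRD9-A and SMARCB1 DMSO lay above it. A difference between EZH1 and EZH2 was not tested.

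Of the core subunits, EED rose with SMARCB1. EED reads the trimethylated mark and stimulates the enzyme. Its libraries had 39.1, 39.9 and 38.4 CPM in GFP DMSO and 45.7, 44.3 and 41.7 CPM in SMARCB1 DMSO, with no overlap. EED thereby went up by 0.16 in log2 units (SE 0.04, adjusted p = 0.00116, edgeR). With dBRD9-A in both arms EED had 37.4, 38.5 and 39.4 CPM in GFP cells and 42.4, 44.0 and 43.9 CPM in SMARCB1 cells, a change of 0.18 (SE 0.04, adjusted p = 0.000735) that turned to -0.15 under spike-in scaling. Each of these calls held without any 1 of the 12 libraries. dBRD9-A changed EED by -0.03 (-0.11 to 0.06) in GFP cells, or 0.33 by spike-ins, and by -0.01 (-0.09 to 0.07) in SMARCB1 cells.

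SUZ12, the scaffold on which the accessory subunits dock, overlapped between GFP DMSO (84.3, 84.0 and 81.0 CPM) and SMARCB1 DMSO (79.4, 81.9 and 85.9 CPM), with a log2 fold change of -0.01 (-0.09 to 0.07). It was highest in GFP dBRD9-A, at 88.6, 90.3 and 92.5 CPM. This was a rise of 0.12 over GFP DMSO (SE 0.04, adjusted p = 0.0366, edgeR) and left SMARCB1 dBRD9-A, at 84.9, 79.9 and 88.4 CPM, below GFP dBRD9-A (-0.10 on the log2 scale, SE 0.04, adjusted p = 0.0306). The first call was lost in 6 of the 12 fits that each left out 1 library, and the second in 3. The partial copy SUZ12P1 had 169 to 340 counts per library, so some reads could be shared with it.

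JARID2 had the largest change of the family. It is a PRC2.2 subunit, a relative of histone demethylases without their activity, that recruits PRC2 to chromatin and whose own methylation stimulates it. GFP DMSO had 7.71, 7.93 and 7.88 CPM and SMARCB1 DMSO 20.9, 20.4 and 22.6 CPM. Every SMARCB1 library was more than 2 times above every GFP library. The change was 2.73-fold, or 1.45 on the log2 scale (SE 0.07, 95% interval 1.29 to 1.60, adjusted p = 1e-11, edgeR), and 10.4% of all genes tested had a larger absolute change. By spike-ins it was 1.62.

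With dBRD9-A in both arms, JARID2 had 8.75, 9.56 and 8.50 CPM in GFP cells and 20.4, 24.5 and 20.4 CPM in SMARCB1 cells, a 2.44-fold change (1.29 on the log2 scale, SE 0.08, adjusted p = 7.4e-11, edgeR; 0.96 by spike-ins). Replicate 2 is the highest in both dBRD9-A groups. Within GFP cells every dBRD9-A library lay above every DMSO library, but the difference of 0.19 (0.01 to 0.37) did not pass (adjusted p = 0.144). Within SMARCB1 cells the groups overlapped, with a change of 0.03 (-0.11 to 0.17). The SMARCB1 effect was not shown to depend on dBRD9-A (interaction -0.16, -0.38 to 0.07, adjusted p = 0.513).

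The count of JARID2 per count of SUZ12 in the same library does not depend on scaling. It was 0.0944 ± 0.00296 (SD, n = 3) in GFP DMSO, 0.0989 ± 0.00696 in GFP dBRD9-A, 0.259 ± 0.00854 in SMARCB1 DMSO and 0.259 ± 0.0413 in SMARCB1 dBRD9-A. The lowest SMARCB1 library, at 0.231, was above the highest GFP library, at 0.106. This ratio was chosen after the values were seen and is given as a description.

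AEBP2, the DNA-binding partner of JARID2 in PRC2.2, showed no change of that size. It had 27.3, 26.8 and 27.5 CPM in GFP DMSO and 25.7, 27.2 and 27.4 CPM in SMARCB1 DMSO, overlapping, with a log2 fold change of -0.03 (-0.11 to 0.06). With dBRD9-A in both arms AEBP2 had 28.5, 28.2 and 30.4 CPM in GFP cells and 26.5, 26.1 and 27.7 CPM in SMARCB1 cells, a fall of 0.12 on the log2 scale (SE 0.04, adjusted p = 0.0258, edgeR), which was lost in 3 of the 12 fits without 1 library and which DESeq2 did not call (adjusted p = 0.0675). The pseudogene EEF1A1P4, with a mean of 478.6 counts, overlaps the span of AEBP2, introns included, on the other strand. Whether the 2 share exon sequence was not examined, and the use of strand in counting is not given. Whether any of its reads reached the AEBP2 count is therefore not known.

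**Figure D2:**
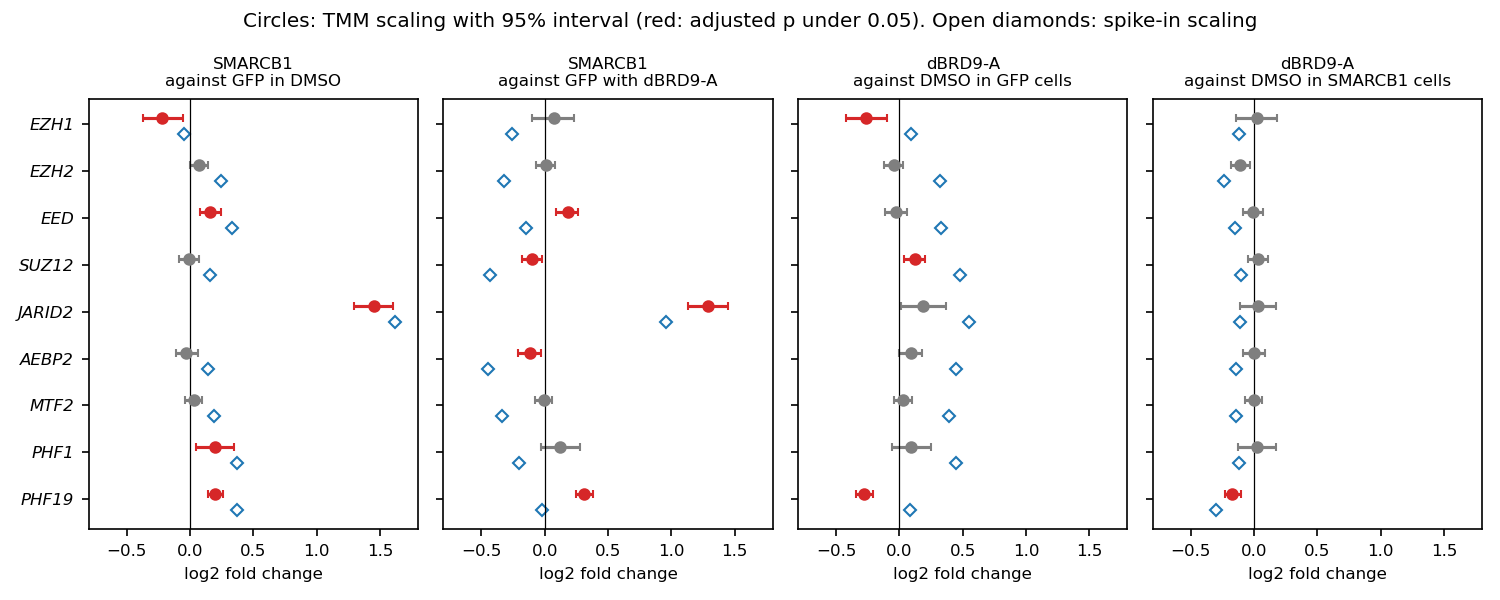
Log2 fold change (horizontal axis) of the 9 members in the 4 pairwise comparisons; circles are TMM-scaled values with 95% intervals, red where the adjusted p is under 0.05, and open diamonds the same genes under spike-in scaling. JARID2 stands apart at 1.45 and 1.29 in the SMARCB1 comparisons, while the diamonds lie to one side of the circles in each panel, by the shift of all genes.

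The PRC2.1 subunits split. MTF2, the Polycomb-like protein that targets PRC2.1 to CpG islands, overlapped in every pairwise comparison, with 75.4 to 81.2 CPM over the 12 libraries. Its log2 fold change was 0.03 (-0.04 to 0.09) for SMARCB1 in DMSO and 0.03 (-0.04 to 0.10) for dBRD9-A in GFP cells. By spike-ins these were 0.19 (adjusted p = 0.0101, edgeR) and 0.39 (adjusted p = 4.12e-06). Spike-in scaling gave MTF2 -0.34 for SMARCB1 with dBRD9-A (adjusted p = 2.15e-05) and -0.14 for dBRD9-A in SMARCB1 cells (adjusted p = 0.142). PHF1, a Polycomb-like protein expressed far lower, had 6.73, 7.39 and 6.98 CPM in GFP DMSO and 7.46, 8.24 and 8.38 CPM in SMARCB1 DMSO. It rose by 0.20 (SE 0.07, adjusted p = 0.0208, edgeR). The call was lost in 4 of the 12 fits without 1 library and by DESeq2 (adjusted p = 0.0834). The gene CUTA overlaps the span of PHF1 on the other strand with a mean of 3848.7 counts, and whether they share exon sequence was likewise not examined.

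PHF19, the Polycomb-like protein common in embryonic and tumour cells, passed in all 4 pairwise comparisons. GFP DMSO had 75.8, 76.5 and 73.8 CPM, and GFP dBRD9-A 62.0, 63.5 and 61.2 CPM. SMARCB1 DMSO had 84.7, 89.7 and 85.6 CPM, and SMARCB1 dBRD9-A 76.9, 76.4 and 78.3 CPM. No 2 groups overlap except GFP DMSO and SMARCB1 dBRD9-A.

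SMARCB1 raised PHF19 by 0.20 on the log2 scale in DMSO (SE 0.03, adjusted p = 1.18e-05, edgeR) and by 0.31 with dBRD9-A (SE 0.03, adjusted p = 9.62e-08), the second turning to -0.02 under spike-in scaling. PHF19 fell by 17.4% with dBRD9-A in GFP cells (log2 fold change -0.28, SE 0.03, adjusted p = 5.8e-06), which turned to 0.08 under spike-in scaling. In SMARCB1 cells PHF19 fell by 10.9% (log2 fold change -0.17, SE 0.03, adjusted p = 0.00543; -0.30 by spike-ins). The 2 falls were not shown to differ (interaction 0.11, 0.02 to 0.20, adjusted p = 0.209). All 4 calls held without any 1 of the 12 libraries.

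Per count of SUZ12, which no scaling moves, PHF19 went from 0.907 ± 0.00633 (SD, n = 3) in GFP DMSO to 0.688 ± 0.0228 in GFP dBRD9-A, and from 1.05 ± 0.0513 in SMARCB1 DMSO to 0.916 ± 0.0366 in SMARCB1 dBRD9-A. Neither pair overlaps. SUZ12 itself rose by 0.12 on the log2 scale with dBRD9-A in GFP cells, which lowers a ratio to it. There EED per SUZ12 also went, without overlap, from 0.471 ± 0.00599 to 0.425 ± 0.00200, and EZH2 per SUZ12 from 0.533 ± 0.0235 to 0.475 ± 0.00549, while AEBP2 per SUZ12 stood between 0.317 and 0.328 in all 4 group means.

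**Figure D3:**
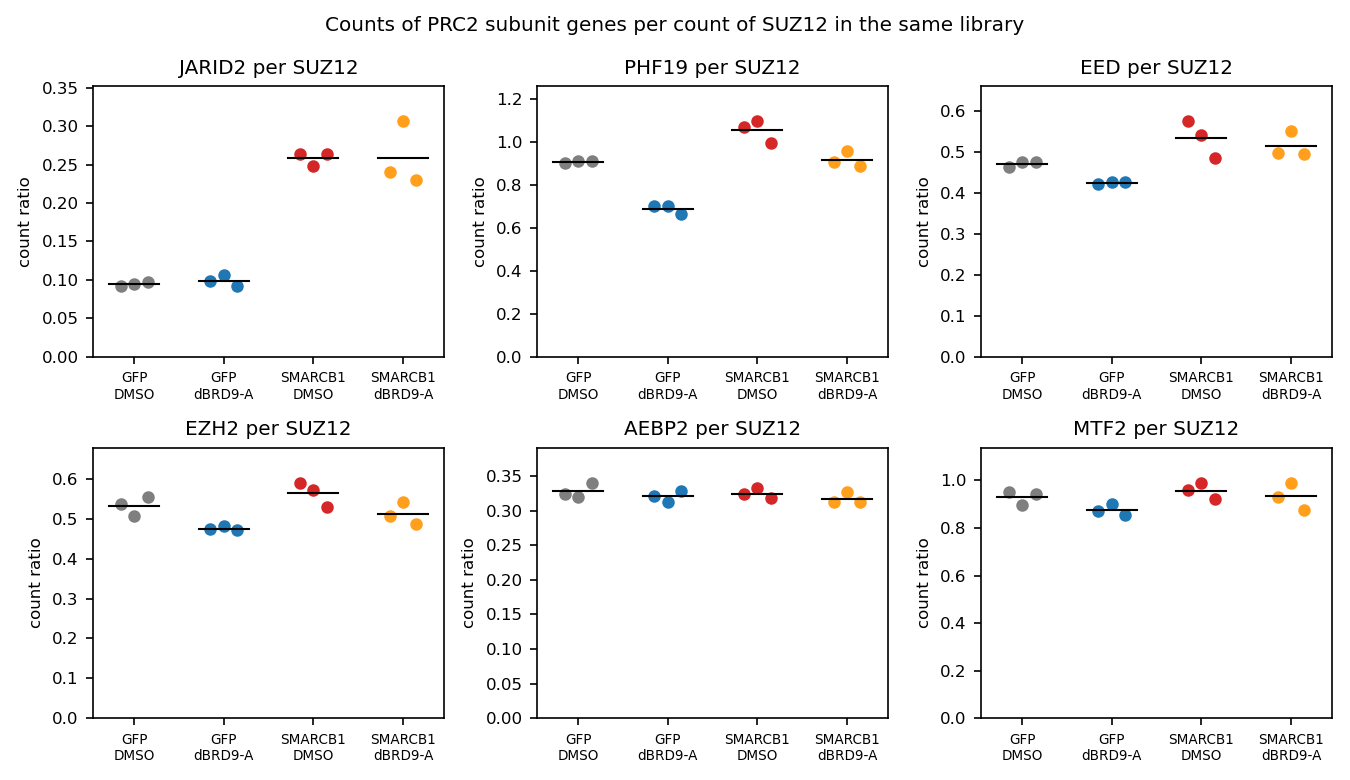
Counts of 6 PRC2 genes per count of SUZ12 in the same library (vertical axes from 0), by group; points are libraries and bars group means (n = 3). JARID2 per SUZ12 averages 0.0944 in GFP DMSO and 0.259 in SMARCB1 DMSO, PHF19 per SUZ12 is lowest in GFP dBRD9-A at 0.688, and AEBP2 per SUZ12 stays between group means of 0.317 and 0.328.

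Across the other comparisons, 5 of 9 members passed for SMARCB1 against GFP with dBRD9-A (3 higher, 2 lower), where 63.3% of all genes did (33.0% higher, 30.4% lower). By spike-ins 6 did (1 higher, 5 lower), where 2129 of all 15750 genes were called higher and 9046 lower. On the TMM scale the count was 3 without GFP dBRD9-A replicate 3, where 9451 of 16103 genes passed. It was also 3 without SMARCB1 dBRD9-A replicate 2, where 9728 of 16009 did. For dBRD9-A in GFP cells 3 of 9 passed (SUZ12 higher, EZH1 and PHF19 lower), where 15.9% of all genes did (7.43% higher, 8.47% lower). By spike-ins 7 of 9 passed, all higher, where 11083 of all 15750 genes were called higher and 227 lower. On the TMM scale only PHF19 passed without GFP DMSO replicate 2 or 3, or without any 1 of the GFP dBRD9-A libraries. Without GFP DMSO replicate 1, 2 members passed. These fits called 1778 to 2056 of all genes, against 2504 in the fit of all 12 libraries. In SMARCB1 cells 1 of 9, PHF19, passed for dBRD9-A, where 1.93% of all genes did (0.679% higher, 1.25% lower). By spike-ins 2 passed, both lower, where 39 of all 15750 genes were called higher and 834 lower. These comparisons share groups with each other.

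The response to dBRD9-A was not shown to differ between GFP and SMARCB1 cells for any member. By edgeR 0 of 9 passed the interaction test, where 3.8% of all genes did (2.15% higher, 1.65% lower). At an unadjusted p under 0.05 there were 2, EZH1 (0.28, 0.06 to 0.51) and PHF19. DESeq2 called 0 members and 631 of 12021 genes. Spike-in scaling, which shifted all genes by -0.49, called 8 members lower, and 11204 of all 15750 genes lower.

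Compared per kilobase of exon, MTF2 (18.7 CPM per kb) and SUZ12 (18.5) led in GFP DMSO and overlapped each other. PHF19 (15.8), EZH2 (14.4), EED (10.8), AEBP2 (4.64), PHF1 (3.02), EZH1 (1.98) and JARID2 (1.33) followed without overlap, so that JARID2 was the least abundant subunit mRNA. In SMARCB1 DMSO JARID2 stood at 3.62 CPM per kb, overlapping PHF1 (3.45) and above EZH1 (1.70), with AEBP2 (4.56) still higher. In GFP dBRD9-A PHF19 dropped below EZH2 (13.1 against 14.0 CPM per kb, no overlap). Exon lengths come from another annotation than the counts may use, so close neighbours in this order could change places.

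The genes whose log2 CPM, centred on each gene's mean over the 12 libraries, lay nearest to that of JARID2 were FAM171A1, TUBB2A and GPC1, with root-mean-square differences of 0.088, 0.089 and 0.091. FAM171A1 went from a geometric mean of 24.9 CPM in GFP DMSO to 64.3 CPM in SMARCB1 DMSO, and GPC1, a cell surface heparan sulphate proteoglycan, from 12.4 to 35.4 CPM. TUBB2A, a beta tubulin, changed by 1.62 on the log2 scale (SE 0.04) and reached 182 CPM. Nearest to EZH2 were PRDX1, SMARCD2 and HPRT1 (0.027, 0.028 and 0.030), each of which changed by at most 0.04 for SMARCB1 in DMSO. In all 12584 genes were compared.

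Of the partners outside the named set, the histone-binding protein RBBP4 fell most. Its libraries had 379, 364 and 381 CPM in GFP DMSO and 283, 271 and 286 CPM in SMARCB1 DMSO, which is -0.42 on the log2 scale (SE 0.03, adjusted p = 6.01e-10, edgeR), and -0.34 with dBRD9-A in both arms (adjusted p = 1.17e-08). RBBP7, which takes the same place in the complex, rose by 0.08 (adjusted p = 0.032, lost in 4 of the 12 fits without 1 library) and, with dBRD9-A, by 0.10 (adjusted p = 0.00647), the latter turning to -0.22 by spike-ins. LCORL, which gives rise to the PRC2.1 subunit PALI2, rose by 0.15 with SMARCB1 (adjusted p = 0.00174) and fell by 0.15 with dBRD9-A in GFP cells (adjusted p = 0.0117), the fall turning to 0.21 by spike-ins. In SMARCB1 cells LCORL fell by 0.18 (adjusted p = 0.0168). These 2 falls were lost in 2 and 3 of the 12 fits without 1 library. LCOR passed in no comparison on the TMM scale. By spike-ins it passed at 0.19 for SMARCB1 in DMSO (adjusted p = 0.0326, edgeR) and -0.24 with dBRD9-A (adjusted p = 0.0049). It also passed at 0.25 for dBRD9-A in GFP cells (adjusted p = 0.00439) and -0.43 for the interaction (adjusted p = 0.000574). EZHIP, an inhibitor of EZH2 normally found in germ cells, had 0 counts in all 12 libraries, which allows up to 3 counts in each.

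Of 9 enzymes that remove or oppose H3K27 methylation, 7 passed for SMARCB1 in DMSO, all higher, with a median log2 fold change of 0.21 against 0.00 over all genes, where 33.5% of all genes were called higher. The other 2, KMT2D (-0.07) and KDM6B (-0.02), did not pass and were named after their values were seen. Of the calls, those of NSD1 and KMT2C held in 10 of the 12 fits without 1 library and that of EP300 in 11, and the NSD1 groups overlapped. Those of NSD2, CREBBP, KDM6A and SETD2 held in all 12. NSD2, a methyltransferase of H3K36, rose by 0.41 (SE 0.03, adjusted p = 7.1e-09, edgeR), CREBBP, an acetyltransferase of H3K27, by 0.34 (SE 0.07, adjusted p = 0.000204) and KDM6A, an H3K27 demethylase, by 0.28 (SE 0.05, adjusted p = 9.92e-05). With dBRD9-A in both arms 5 passed, all higher, where 33.0% of all genes were called higher. The calls of EP300 and KMT2C there held in 9 and 8 of the 12 fits without 1 library. By spike-ins 0 were higher and 3 lower, where 2129 of all 15750 genes were called higher and 9046 lower. In the dBRD9-A comparisons edgeR and DESeq2 called 0 of 9, where edgeR called 15.9% of all genes in GFP cells and 1.93% in SMARCB1 cells. For 9 genes a count of 0 is near these shares. At an unadjusted p under 0.05 there were 2 in GFP cells and 1 in SMARCB1 cells. By spike-ins 8 were higher in GFP cells, as were 11083 of all 15750 genes, and 1 was lower in SMARCB1 cells, as were 834.

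Several PRC2 genes are known E2F targets, so genes of S phase and division regulated by E2F were read beside them. Of 21 matched (UHRF1 was not), 13 passed for SMARCB1 in DMSO, 10 higher and 3 lower, where 65.0% of all genes did, and the median log2 fold change was 0.03. MKI67, the Ki-67 proliferation antigen, rose by 0.67 (SE 0.13, adjusted p = 0.000176, edgeR) and cyclin E2 (CCNE2) by 0.64 (SE 0.05, adjusted p = 1.46e-09). The MKI67 libraries were scattered in SMARCB1 DMSO, at 54.32, 71.51 and 83.35 CPM, against 42.29, 48.05 and 42.44 CPM in GFP DMSO. With dBRD9-A in both arms the MKI67 groups overlapped, and DESeq2 did not call the gene (adjusted p = 0.0607). E2F2 fell by 0.68 (SE 0.04, adjusted p = 5.54e-11) and cyclin E1 (CCNE1) by 0.43 (SE 0.04, adjusted p = 8.15e-09). With dBRD9-A in both arms 15 passed, 11 higher and 4 lower, where 63.3% of all genes did. By spike-ins 1 was higher and 16 lower, where 2129 of all 15750 genes were called higher and 9046 lower. For dBRD9-A, 3 of 21 passed in GFP cells, where 15.9% of all genes did, namely MYBL2 higher by 0.09 (adjusted p = 0.0425) and E2F2 (-0.21) and RRM2 (-0.11) lower. The MYBL2 call was lost in 6 of the 12 fits without 1 library and the RRM2 call in 4. DESeq2 called 4 of the 21 in GFP cells, and spike-in scaling 20, all higher, where spike-in scaling called 11083 of all 15750 genes higher. Under spike-in scaling E2F2 and RRM2 turned to 0.14 and 0.25. Of the 21, E2F2 passed in SMARCB1 cells, at -0.20 (adjusted p = 0.0166), a call lost in 1 of the 12 fits. There DESeq2 called 2 and spike-in scaling 3, all lower, where spike-in scaling called 834 of all 15750 genes lower.

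Genes known as PRC2 targets in stem cells or rhabdoid cells numbered 27 on the list, and many were silent. Of these 12 had at most 2 counts in any library and were not tested, 9 of them with 0 counts in all 12 libraries, among them WT1, ISL1 and SOX17. Of the 15 tested, 12 were higher and 3 lower with SMARCB1 in DMSO, where 33.5% of all genes were called higher and 31.6% lower. By spike-ins 12 were higher and 1 lower, where 6831 of all 15750 genes were called higher and 2581 lower. With dBRD9-A in both arms 12 were higher and 2 lower, where 33.0% of all genes were called higher and 30.4% lower. By spike-ins this became 10 higher and 3 lower, where 2129 genes were called higher and 9046 lower. Some targets passed the filter only through the group in which they are high, so these counts are a description. GATA6, a transcription factor of endoderm and heart, had 6 to 18 counts per library in GFP DMSO and 410 to 569 in SMARCB1 DMSO (log2 fold change 5.63, SE 0.17, adjusted p = 5.48e-15, edgeR). HAND1, a transcription factor of heart and trophoblast, had 1 or 2 counts in GFP DMSO and 163 to 264 in SMARCB1 DMSO, at least 74.2-fold higher against a floor of 3 counts per library.

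The 3 targets lower with SMARCB1 in DMSO on the TMM scale were FOXC1, TBX15 and PAX2. FOXC1, a mesenchymal transcription factor, fell by 0.24 on the log2 scale with SMARCB1 in DMSO (SE 0.04, adjusted p = 9.03e-05, edgeR), and TBX15, a factor of skeletal development, by 0.22 (SE 0.04, adjusted p = 0.00013). Under spike-in scaling both calls were lost, at -0.07 for FOXC1 (adjusted p = 0.391) and -0.05 for TBX15 (adjusted p = 0.558). Both were well expressed in GFP DMSO, at 39.0 to 41.4 CPM. PAX2, of the developing kidney, had 15 to 26 counts in GFP DMSO and 0 or 1 in SMARCB1 DMSO, at least 6.02-fold lower. PAX2 and the cell cycle inhibitors that follow were picked after their values were seen. CDKN2A rose by 1.54 (SE 0.18), CDKN2B by 3.07 (SE 0.19) and CDKN1C by 2.17 (SE 0.17), with adjusted p of 5.12e-07, 1.31e-10 and 2.5e-09.

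For dBRD9-A the targets' counts were near the background. In GFP cells 2 of 15 passed, where 15.9% of all genes did, BMP4 higher by 0.15 (SE 0.03, adjusted p = 0.000638, edgeR) and TBX15 lower (-0.16 on the log2 scale, SE 0.04, adjusted p = 0.0144, which turned to 0.20 by spike-ins). The TBX15 call was lost in 3 of the 12 fits without 1 library. By spike-ins 9 of the 15 passed in GFP cells, all higher, where 11083 of all 15750 genes were called higher. In SMARCB1 cells edgeR and DESeq2 called 0 of 15, where edgeR called 1.93% of all genes. At an unadjusted p under 0.05 there were 3. By spike-ins 2 were called lower, as were 834 of all 15750 genes. HAND1 had 1 to 4 counts in GFP dBRD9-A, against 168 to 207 in SMARCB1 dBRD9-A. GATA6 had 7 to 11 counts in GFP dBRD9-A and 434 to 610 in SMARCB1 dBRD9-A.

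**Figure D4:**
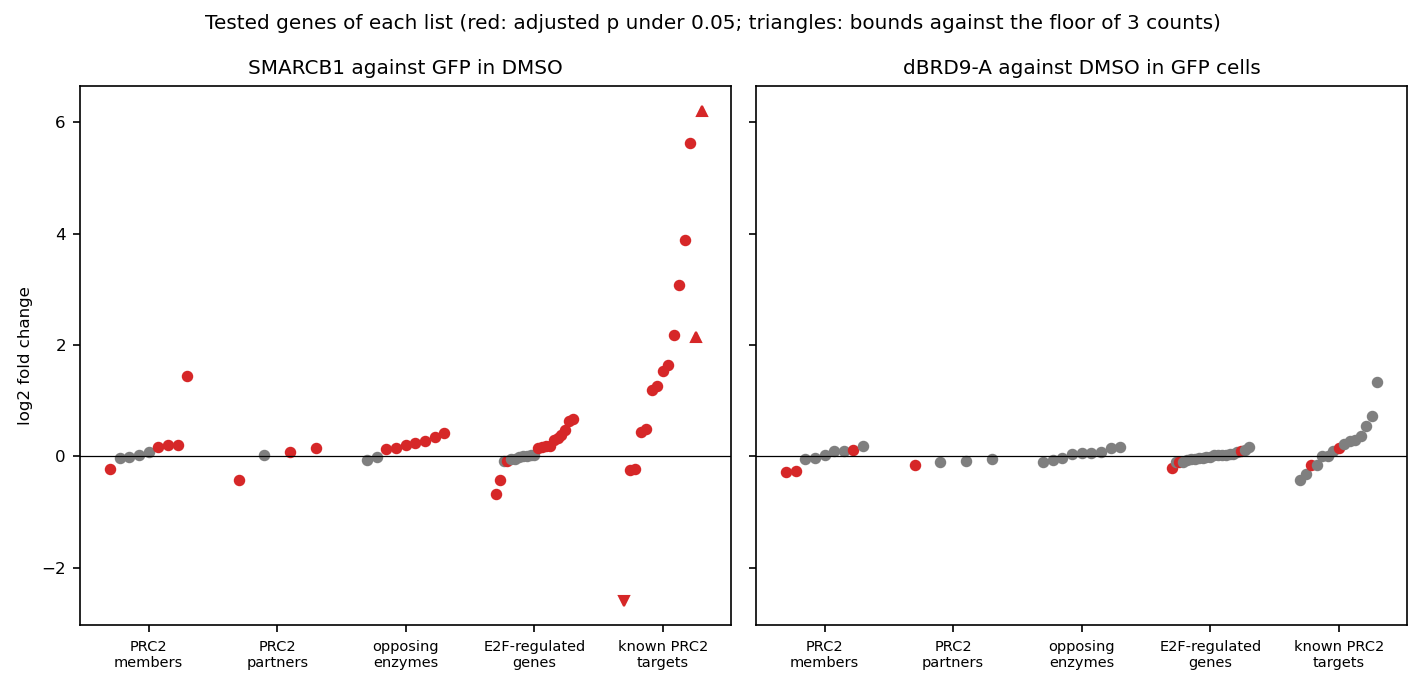
Log2 fold change (vertical axis) of every tested gene of the 5 lists, sorted within each list, for SMARCB1 against GFP in DMSO and for dBRD9-A against DMSO in GFP cells; red marks an adjusted p under 0.05 and triangles mark bounds against the floor of 3 counts. Known PRC2 targets spread up to GATA6 at 5.63 and HAND1 at its bound, while for SMARCB1 in DMSO the PRC2 members other than JARID2, at 1.45, lie between -0.22 and 0.20.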

How the data were processed

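The 12 libraries were made with the TruSeq Stranded mRNA kit from G401 RNA (RNeasy Plus columns), per the labels' protocols. The authors deposited 3 tables of RSEM expected counts per gene, and libraries repeated between tables had identical values. The submitters' processing notes name STAR, RSEM 1.3.1, DESeq2 and GRCh37/hg19, with no role or order; the annotation and the use of strand are not given in the sources used here. Of all values, 2.57% were not whole, and counts were rounded to whole numbers. Spike-in rows (40) were kept out of library sizes and tests. Symbols were matched for 51996 of 57820 rows through a table of gene identifiers.

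Counts were tested in R 4.3.3 with edgeR 4.0.16 (quasi-likelihood, filterByExpr with a minimum count of 10, TMM, 1 coefficient per group, all 12 libraries), with Benjamini-Hochberg adjustment over 15750 genes and a threshold of 0.05. Intervals are 95% from the same fit and assume that it holds. Alternatives were other scalings, other filters, DESeq2 1.42.0, a replicate block, fewer libraries and a fold limit. Floors (3 counts) cover counting error only, since reads carry no molecular identifiers. Exon lengths came from GENCODE 29 and promoters from RefSeq (GRCh38.p14), matched by symbol for all 9 members. The scripts were tested on simulated data. Named were all PRC2 genes and partners, up to the 2 largest rises and falls of each other list and pairwise comparison with a mean of at least 50 counts, and the 3 genes nearest to EZH2 and to the member with the largest change. Members and lists were chosen with earlier results of these data known.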

Additional observations from a re-analysis of the deposited data

Results flagged for a closer look

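BMP4, a growth factor gene on the list of known PRC2 targets, responded to dBRD9-A differently in the 2 cell states by the interaction test: the difference between its log2 fold changes was -0.21 (SE 0.04, adjusted p = 0.00266, edgeR). In GFP cells BMP4 went from 165, 169 and 171 CPM to 192, 185 and 184 CPM, a change of 0.15, and in SMARCB1 cells from 238, 239 and 232 CPM to 227, 227 and 228 CPM, a change of -0.06 that did not pass (adjusted p = 0.36). The interaction was -0.71 by spike-in scaling, which shifted all genes by -0.49.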

How the results depend on the processing

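With a change of at least 0.5 on the log2 scale required as well, the members called were 1 (JARID2) in each SMARCB1 comparison and 0 in each dBRD9-A comparison. Of all 15750 genes this limit left 4411 for SMARCB1 in DMSO and 4274 with dBRD9-A. For dBRD9-A it left 454 in GFP cells and 61 in SMARCB1 cells. DESeq2's Wald test called 3 members for SMARCB1 in DMSO. Leaving out 1 library at a time gave 3 to 5 members in each SMARCB1 comparison, 1 to 3 for dBRD9-A in GFP cells, 1 in SMARCB1 cells and 0 for the interaction. DESeq2 size factors in edgeR and a mean of at least 50 counts changed no call of a named gene; without a filter on low counts 2 member calls were lost. Spike-in scaling called 6 members higher for SMARCB1 in DMSO, and 1 higher and 5 lower for SMARCB1 with dBRD9-A. It called 7 members for dBRD9-A in GFP cells, 2 in SMARCB1 cells and 8 for the interaction. In each comparison most of all genes called under this scaling lay on the same side as most of these members.

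Spike-in scaling also ended, with no turn of sign, the calls for SMARCB1 in DMSO of EZH1 (-0.05), FOXC1 (-0.07) and TBX15 (-0.05), and for SMARCB1 with dBRD9-A of NSD2 (0.08), MYBL2 (0.02) and MKI67 (0.05). Of named genes that passed in either fit, signs turned only under spike-in scaling, by the shift of all genes. For SMARCB1 with dBRD9-A the values were -0.26 for EZH1, -0.32 for EZH2, -0.15 for EED, -0.02 for PHF19, -0.22 for RBBP7, -0.24 for LCOR, -0.20 for LCORL, -0.05 for BMP4, -0.20 for CREBBP, -0.12 for KDM6A and -0.22 for RRM2. For dBRD9-A in GFP cells they were 0.09 for EZH1, 0.32 for EZH2, 0.33 for EED, 0.08 for PHF19, 0.32 for RBBP4, 0.28 for RBBP7, 0.25 for LCOR, 0.21 for LCORL, 0.29 for CCNE1, 0.25 for CCNE2, 0.14 for E2F2, 0.25 for RRM2 and 0.20 for TBX15. For the interaction they were -0.48 for EED, -0.38 for PHF19, -0.42 for RBBP4, -0.47 for RBBP7, -0.43 for LCOR, -0.36 for CCNE1, -0.39 for CCNE2, -0.48 for E2F2, -0.42 for RRM2 and -0.32 for TBX15.

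With the replicate number as a block, the members called were 5, 5, 3 and 1 in the pairwise comparisons and 0 for the interaction, and among the other named genes 1 call, that of MYBL2 for dBRD9-A in GFP cells, was lost. No strong effect shared by replicate number was seen: the 18 same-numbered pairs had correlations of their deviations from -0.131 to 0.0877, and 1 of 12 libraries correlated best with its own number. These correlations cannot show whether the libraries were paired by design. Depth limited EZH1, PHF1 and JARID2 most among the members. EZH1 and PHF1 had 268 to 550 counts per library, and JARID2 had 301 to 456 in the GFP libraries. Their SE for SMARCB1 in DMSO was 0.07, against 0.03 for MTF2 and PHF19. It also limited targets with few counts, such as HAND1 in GFP cells.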
